A study of Rattus norvegicus with 20 samples.

Results

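The transcripts described here are those whose hepatic mRNA levels differed most among rats of the same strain or line. They were chosen by a pooled SD of at least 0.6 on the log2 scale within the 5 strains or lines, which is the square root of the mean of the 5 variances, and by a mean signal of at least 4, the level taken as the limit of expression. This gave 134 ProbeSets among 7142 expressed ones (1.88%) and 15923 on the array. Of the 134, 105 carried a single gene symbol and stood for 98 genes, 7 carried several symbols and 22 carried none, and the last 2 kinds are called by their ProbeSet. The choice rests on the within-strain spread itself, so the size of that spread is given below as a description and not as a finding.

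Liver mRNA was measured on Affymetrix RAE230A arrays in 20 male rats aged 10 to 12 weeks, 4 rats for each of 5 strains or lines, with 1 rat per array. S-D (Sprague-Dawley, an outbred stock), L-E (Long-Evans, inbred) and Line-C carried the wild-type *Ahr*, and H/W (Han/Wistar, a random-bred closed colony) and Line-A carried the mutant *Ahr*; both lines descend from crosses of L-E with H/W. All rats had been given corn oil by gavage 19 h before, although the S-D labels say only control, and livers were taken over a morning window with no time given for any single rat. All markers of hepatocytes on the array (11 of 11) were expressed and their median pooled SD was 0.0876, and the labelled tissue was borne out in every rat. Whole liver was profiled, and fewer cells of a type cannot be told apart from less RNA per cell.

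A liver keeps blood glucose and lipids steady by switching between storage and release, and many of its transcripts follow feeding, hormones and the time of day. Immediate-early genes answer to stress and growth signals within minutes, clock genes cycle over the day, and lipogenic enzymes and enzymes of fatty acid oxidation are known to move in opposite directions between the fed and the fasted state. Metallothioneins, which bind zinc and copper, are induced by metals and by glucocorticoids.

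Among the 7142 expressed ProbeSets the median pooled SD was 0.185 and the 90th percentile 0.360, whereas the median over the 134 was 0.736 and the highest 2.52. The spiked hybridization controls, which measure the array step alone, had pooled SDs from 0.0698 to 0.202. Within their most spread-out strain or line the 134 covered a range of 1.63 to 7.16 (median 2.74), on the log2 scale. The threshold fell in a continuous distribution: *Angptl4* and *Thrsp* were just inside, at 0.602 and 0.603, and *Cyp8b1* and another ProbeSet of *Dusp6* were just outside, at 0.599 and 0.5999. Members were found at all signal levels, with 47 of 2256 expressed ProbeSets at a mean of 4 to 6, 39 of 2168 at 6 to 8, 46 of 2401 at 8 to 12 and 2 of 317 above 12.

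**Figure D1:**
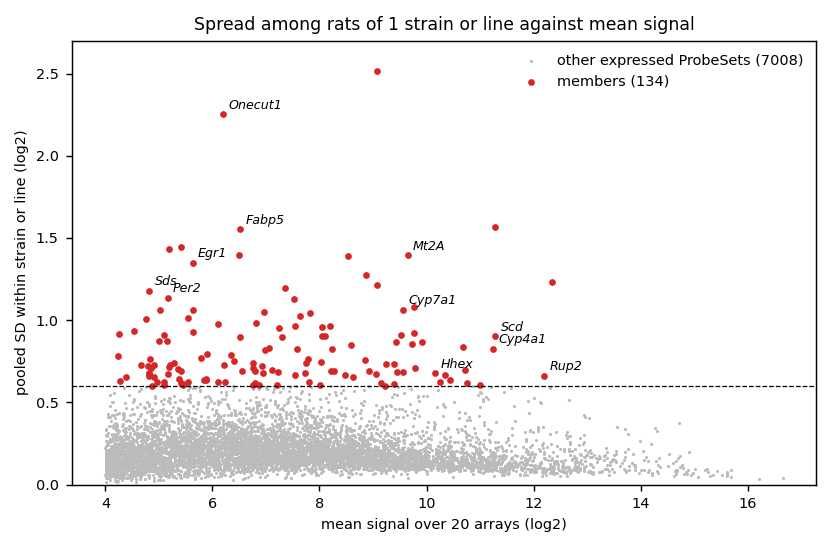
Pooled within-strain SD (vertical axis, log2) against mean signal over 20 arrays (horizontal axis, log2) for the 134 members (red) and the other expressed ProbeSets (grey), with the limit of 0.6 as a dashed line. The members lie above the line by construction, at signals from near 4 to above 12.

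Only a minority of the 134 were variable everywhere. In 13 the SD reached 0.6 in all 5 groups, in 18 in 4 groups, in 33 in 3, in 47 in 2 and in 23 in 1. The 13 were *Onecut1*, *Egr1*, *Jun*, *Per2*, *Bhlhe40*, *Sgk1*, *Mt1*, *Mt2A*, *Angptl8* and the ProbeSets 1372727_at, 1371237_a_at, 1375422_at and 1369840_at. The group with the largest SD was H/W for 46 members, Line-A for 30, L-E for 27, S-D for 16 and Line-C for 15.

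To see whether spread in some strains went with spread in another, transcripts were chosen afresh on 4 groups and their SD was read in the fifth, which the choice did not use. Of 112 ProbeSets chosen without H/W, 59 (52.7%) had an SD of at least 0.6 in H/W, against 4.84% of expressed ProbeSets. The share was 43.3% of 134 in L-E (against 2.62%), 34.5% of 139 in Line-A (against 2.57%), 33.3% of 150 in Line-C (against 1.91%) and 20.4% of 167 in outbred S-D (against 1.03%). The S-D rats had the smallest SDs over all expressed ProbeSets too, with a median of 0.116 against 0.149 to 0.204 in the other 4 groups. The S-D arrays had a scan day, chip lot and operator of their own, so that for S-D strain and scan cannot be told apart. L-E and H/W shared no scan day or chip lot with Line-A and Line-C, so strain and scan cannot be told apart between those groups either. All 8 arrays of Line-A and Line-C also shared 1 day, with median SDs of 0.149 and 0.151. The median was 0.154 for L-E, which was scanned over 2 days, and 0.204 for H/W, which was scanned over 3. Whether scan day had a part in these spreads was not tested. When the SD was taken within both group and scan day, 134 ProbeSets were again chosen, of which 118 were shared. For S-D, Line-A and Line-C the deviations were the same as before, so much of this overlap was fixed in advance. L-E rat 1 and H/W rats 1 and 4 were alone on their day within their group and did not enter, which left 12 residual degrees of freedom.

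By function, the share of expressed genes that were members was 1.82% over all 5387 genes. It was 28.6% for immediate-early and heat-shock genes (6 of 21), 28.6% for metallothioneins and other genes of the glucocorticoid and metal response (4 of 14), 33.3% for the circadian clock (3 of 9), 23.1% for fatty acid oxidation and targets of PPARA (6 of 26), 21.7% for fatty acid synthesis (5 of 23) and 21.1% for fasting and gluconeogenesis (4 of 19). The sex-dependent and growth hormone targets had 5 members of 28, antigen presentation 3 of 16, P450s and related targets 3 of 28, bile acid genes 2 of 15, interferon-stimulated genes 2 of 22, antioxidant genes 2 of 23 and acute-phase genes 1 of 22. None of 19 cholesterol genes, 23 genes of the amino acid and ER stress response or 7 cell cycle genes was a member, although the median pooled SDs of these lists (0.357, 0.323 and 0.248) were also above the 0.182 of all expressed genes. These are counts over lists chosen with earlier results known, and they carry no test.

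The immediate-early members were *Egr1* and *Jun*, which are transcription factors, *Dusp1* and *Dusp6*, phosphatases that switch off MAP kinases, *Gadd45g*, a stress-induced growth arrest gene, and *Klf10*, a transcription factor induced by TGF-beta. In the order of rats 1 to 4, which holds for all values below, *Egr1* signals (log2) were 5.28, 8.28, 4.47 and 8.18 among S-D rats, 7.74, 5.47, 5.48 and 5.51 among L-E rats, 5.20, 4.18, 5.34 and 3.56 among H/W rats, 4.20, 7.83, 4.99 and 5.21 among Line-A rats, and 4.74, 6.67, 5.39 and 4.86 among Line-C rats. S-D rats 2 and 4, L-E rat 1 and Line-A rat 2 were high, and Line-C rat 2 was the highest of its line. Every H/W rat lay below every L-E rat, and the other groups overlapped. *Gadd45g* read 4.06, 5.07, 3.47 and 7.57 among S-D rats, 4.07, 6.23, 4.09 and 3.77 among L-E rats, 6.07, 4.10, 6.75 and 3.36 among H/W rats, 4.44, 7.99, 7.18 and 8.15 among Line-A rats, and 4.40, 3.74, 4.44 and 4.88 among Line-C rats. The high rats were S-D rat 4, L-E rat 2, H/W rats 1 and 3 and all of Line-A but rat 1. *Jun* read 7.22, 7.65, 7.36 and 8.66 among S-D rats, 8.60, 7.22, 8.80 and 6.88 among L-E rats, 7.05, 6.79, 5.34 and 6.0 among H/W rats, 7.60, 6.83, 8.55 and 7.39 among Line-A rats, and 6.53, 6.96, 8.67 and 5.74 among Line-C rats, with its highest values in S-D rat 4, L-E rats 1 and 3, Line-A rat 3 and Line-C rat 3. After removal of group means, *Egr1* and *Dusp1* moved together (r = 0.61 and rho = 0.67 over 20 arrays), *Dusp1* and *Gadd45g* also (r = 0.64, rho = 0.60), but *Egr1* and *Jun* had r = 0.16 (rho = 0.16). These correlations, like all below, are taken over the same 20 arrays and are given without a p-value.

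The clock members were *Per2*, a repressor in the feedback loop, *Nr1d2* (REV-ERB beta), a nuclear receptor that represses the loop's activators, and *Bhlhe40* (DEC1), another repressor. *Per2* read 5.13, 5.15, 5.24 and 3.51 among S-D rats, 3.53, 3.34, 4.21 and 4.75 among L-E rats, 5.25, 3.75, 8.25 and 5.23 among H/W rats, 6.34, 5.98, 5.93 and 4.52 among Line-A rats, and 7.0, 6.16, 5.50 and 4.46 among Line-C rats. H/W rat 3 was the highest of all and S-D rat 4 lay more than 1 below its group. *Nr1d2* read 3.99, 4.92, 4.16 and 4.85 among S-D rats, 5.81, 6.67, 6.88 and 4.73 among L-E rats, 4.26, 4.77, 3.08 and 4.50 among H/W rats, 3.36, 5.94, 5.35 and 6.07 among Line-A rats, and 4.48, 4.78, 5.25 and 6.07 among Line-C rats. It was highest in L-E rats 2 and 3 and lowest in H/W rat 3, and its deviations ran opposite to those of *Per2* (r = -0.68, rho = -0.74), while *Bhlhe40* followed neither (r = 0.16 and rho = 0.05 with *Per2*, and r = -0.17 and rho = -0.26 with *Nr1d2*).

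*Mt1* and *Mt2A* were 2 of the 13 members variable in every group. *Mt2A* read 10.58, 9.91, 8.63 and 11.59 among S-D rats, 11.15, 12.0, 11.39 and 7.98 among L-E rats, 7.49, 10.26, 7.64 and 8.66 among H/W rats, 10.36, 7.02, 7.60 and 7.49 among Line-A rats, and 9.27, 11.26, 11.28 and 11.34 among Line-C rats. L-E rat 4, Line-C rat 1 and S-D rat 3 were low in their groups, while H/W rat 2 and Line-A rat 1 were high, and L-E rat 4 lay more than 3 below the other L-E rats. *Mt1* followed it closely (r = 0.93, rho = 0.92), with signals of 7.87, 7.37, 6.87 and 8.33 among S-D rats, 6.88, 7.46, 7.77 and 6.09 among L-E rats, 5.68, 6.89, 5.14 and 6.47 among H/W rats, 7.23, 5.16, 5.61 and 5.76 among Line-A rats, and 6.22, 7.34, 7.59 and 7.35 among Line-C rats. *Sgk1*, a kinase gene induced by glucocorticoids, ran the other way from *Mt2A* (r = -0.59, rho = -0.69), at 9.45, 10.67, 10.14 and 9.33 among S-D rats, 9.10, 8.77, 8.38 and 10.04 among L-E rats, 9.38, 8.60, 9.77 and 9.99 among H/W rats, 9.28, 10.82, 11.41 and 11.31 among Line-A rats, and 10.86, 11.08, 9.83 and 6.96 among Line-C rats. Line-C rat 4 read more than 2 below the other Line-C rats, and Line-A rat 1 was the lowest of its line.

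The promoters of members that moved together or against each other follow, in windows of 300 bases that end 50 bases past the start annotated by RefSeq (build GRCr8), for *Mt1* and *Mt2A* with TGCNCNC in capitals, a looser form of the metal response core, which takes only a purine at its first N, for *Dusp1* with the cAMP response element TGACGTCA in capitals, and for *Per2* with the D-box TTATGTAA in capitals. Both strands were searched and overlapping matches counted separately. On the minus strand stand *Mt1* (chr19:10832926-10833225), *Mt2A* (chr19:10838659-10838958) and *Per2* (chr9:99496944-99497243), and on the plus strand *Dusp1* (chr10:17184603-17184902), and each window is printed in the direction of its gene.
Mt1: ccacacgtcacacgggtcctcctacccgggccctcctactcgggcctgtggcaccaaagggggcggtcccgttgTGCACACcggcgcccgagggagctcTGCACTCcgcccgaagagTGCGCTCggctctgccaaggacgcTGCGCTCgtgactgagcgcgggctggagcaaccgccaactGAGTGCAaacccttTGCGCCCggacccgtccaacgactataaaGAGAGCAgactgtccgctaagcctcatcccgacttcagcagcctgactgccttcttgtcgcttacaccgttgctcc
Mt2A: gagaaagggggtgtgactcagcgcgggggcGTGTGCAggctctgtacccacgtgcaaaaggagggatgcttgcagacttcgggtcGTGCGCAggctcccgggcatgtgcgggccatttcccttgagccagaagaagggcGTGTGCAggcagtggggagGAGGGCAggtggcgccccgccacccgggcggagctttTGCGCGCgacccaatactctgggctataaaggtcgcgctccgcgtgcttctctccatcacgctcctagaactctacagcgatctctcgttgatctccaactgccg
Dusp1: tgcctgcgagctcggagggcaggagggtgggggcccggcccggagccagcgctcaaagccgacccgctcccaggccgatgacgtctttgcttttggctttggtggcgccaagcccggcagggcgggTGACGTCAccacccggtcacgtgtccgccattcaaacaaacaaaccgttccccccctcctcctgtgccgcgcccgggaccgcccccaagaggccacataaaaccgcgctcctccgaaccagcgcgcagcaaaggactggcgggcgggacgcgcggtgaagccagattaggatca
Per2: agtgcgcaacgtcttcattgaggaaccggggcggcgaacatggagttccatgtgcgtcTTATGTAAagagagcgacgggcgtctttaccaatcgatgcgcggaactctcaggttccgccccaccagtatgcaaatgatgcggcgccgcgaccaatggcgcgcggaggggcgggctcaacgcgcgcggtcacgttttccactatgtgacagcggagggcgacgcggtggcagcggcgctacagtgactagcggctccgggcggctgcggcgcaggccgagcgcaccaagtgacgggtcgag
The *Mt1* window held 7 matches to the loose form and the *Mt2A* window 5. At least 1 match stood in 49.6% of 33469 promoters and in 53 of the 78 members with a promoter in the table (67.9%). There were 5 or more in 0.669% of promoters and in 5 of the members (*Mt1*, *Mt2A*, *Crot*, *Dmxl2* and *Marveld1*), and 7 or more in 0.108% and in *Mt1* alone among them. With a purine required, *Mt1* kept 6 matches and *Mt2A* 4, and 4 or more stood in 0.439% of promoters and in 4 members (with *Crot* and *Dmxl2*). The cAMP element stood in 1.83% of all promoters and in 4 of the 78 members (*Dusp1*, *Slc25a25*, *Wsb1* and *RT1-Ba*), and the D-box in 0.893% and in *Per2* alone among the members. The E-box CACGTG was found in 7 of 78 members (6.42% of all promoters), the interferon-stimulated response element in 5 (3.92%), the AP-1 site TGANTCA in 4 (7.33%), the amino acid response element TGATGNAAT in 1 (1.09%) and the sterol element TCACNCCAC in none (1.1%). The matches describe letters only.

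The transcripts with the widest spread were 1372727_at, which has no gene name here, and *Onecut1*, the gene of the hepatocyte transcription factor HNF6. *Onecut1* read 6.21, 3.19, 6.07 and 4.09 among S-D rats, 9.58, 9.62, 9.52 and 3.18 among L-E rats, 6.03, 8.54, 3.04 and 4.88 among H/W rats, 8.97, 5.14, 9.30 and 9.22 among Line-A rats, and 4.44, 3.22, 7.02 and 2.85 among Line-C rats. In L-E and in Line-A, 3 rats lay near 9 and 1 rat was far lower (L-E rat 4 and Line-A rat 2), while H/W and Line-C were each spread over more than 4. S-D rat 2, L-E rat 4, H/W rat 3 and Line-C rats 2 and 4 lay below the limit of expression for *Onecut1*. Its spread and the order of its lowest rats are therefore those of measured signals. 1372727_at read 10.72, 7.71, 9.49 and 8.80 among S-D rats, 11.03, 9.60, 10.80 and 4.20 among L-E rats, 9.87, 10.53, 6.02 and 10.93 among H/W rats, 9.45, 4.85, 10.37 and 10.10 among Line-A rats, and 10.19, 10.55, 11.21 and 5.04 among Line-C rats. In each of the 5 groups the rat that was lowest for *Onecut1* was also the lowest for this transcript (r = 0.85, rho = 0.73). *Socs2*, a feedback inhibitor of growth hormone signalling, moved with *Onecut1* (r = 0.67, rho = 0.67), and *Nr0b2* (SHP), a nuclear receptor that represses bile acid synthesis, moved against it (r = -0.68, rho = -0.52).

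*Nr0b2* itself read 7.98, 7.51, 6.81 and 7.45 among S-D rats, 4.21, 4.96, 5.84 and 7.70 among L-E rats, 5.96, 6.47, 8.66 and 6.74 among H/W rats, 7.19, 7.77, 6.58 and 5.13 among Line-A rats, and 8.03, 7.41, 8.12 and 8.87 among Line-C rats. In 4 of the 5 groups, all but S-D, the rat with the lowest *Onecut1* had the highest *Nr0b2*. *Cyp7a1*, whose enzyme sets the pace of bile acid production from cholesterol, read 10.49, 9.14, 10.04 and 9.74 among S-D rats, 8.27, 8.57, 9.72 and 11.06 among L-E rats, 10.33, 10.53, 10.44 and 9.47 among H/W rats, 8.82, 10.40, 9.59 and 7.76 among Line-A rats, and 10.40, 10.29, 7.25 and 8.76 among Line-C rats. Line-C rat 3 and Line-A rat 4 were the lowest, L-E rat 4 was the highest, and the pair of genes had r = 0.49 (rho = 0.43).

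Of the fasting and gluconeogenesis genes, *Sds*, which makes pyruvate from serine, owed its place to few rats, at 3.49, 4.13, 4.53 and 4.15 among S-D rats, 5.15, 9.19, 4.13 and 4.39 among L-E rats, 4.48, 4.78, 5.09 and 6.21 among H/W rats, 4.20, 4.10, 4.18 and 4.45 among Line-A rats, and 5.75, 4.43, 5.40 and 4.08 among Line-C rats. L-E rat 2 was more than 4 above every other L-E rat, and H/W rat 4 was the next highest in all. *Igfbp1*, a liver protein that binds insulin-like growth factors and is repressed by insulin, read 4.47, 5.76, 5.44 and 7.51 among S-D rats, 4.72, 6.87, 7.10 and 6.19 among L-E rats, 4.19, 3.90, 4.28 and 3.25 among H/W rats, 3.05, 5.35, 2.59 and 3.28 among Line-A rats, and 4.72, 4.75, 6.18 and 6.90 among Line-C rats. S-D rat 4, L-E rats 2 and 3 and Line-C rat 4 were the highest, every H/W rat lay below every L-E rat, and its deviations went with those of *Gadd45g* (r = 0.59, rho = 0.58).

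The lipogenic members were *Fasn* (fatty acid synthase), *Scd* (stearoyl-CoA desaturase), *Me1* (malic enzyme, which makes NADPH), *Pklr* (liver pyruvate kinase) and *Thrsp* (Spot 14, a regulator of lipogenesis). *Fasn* read 8.54, 8.46, 8.73 and 8.17 among S-D rats, 8.88, 7.93, 9.10 and 10.09 among L-E rats, 11.01, 9.72, 10.19 and 8.66 among H/W rats, 10.89, 11.91, 11.25 and 10.97 among Line-A rats, and 9.58, 9.71, 9.11 and 8.48 among Line-C rats. L-E rat 4 and H/W rat 1 were the highest of their groups, and Line-A lay above S-D, L-E and Line-C with no overlap. *Scd* read 11.84, 11.98, 11.21 and 11.19 among S-D rats, 10.06, 9.45, 8.75 and 11.11 among L-E rats, 12.65, 9.93, 10.53 and 9.72 among H/W rats, 12.28, 13.77, 13.04 and 13.24 among Line-A rats, and 10.91, 11.77, 12.03 and 10.14 among Line-C rats, with the same H/W and L-E rats on top. The deviations of *Fasn* went with those of *Thrsp* (r = 0.85, rho = 0.86), *Pklr* (r = 0.83, rho = 0.70), *Scd* (r = 0.73, rho = 0.66) and *Me1* (r = 0.62, rho = 0.68). *Fabp5*, a fatty acid binding protein, was in the same co-varying group, at 7.88, 7.91, 7.42 and 7.90 among S-D rats, 3.95, 2.66, 4.57 and 7.12 among L-E rats, 7.16, 4.04, 6.97 and 5.20 among H/W rats, 4.63, 7.89, 8.87 and 8.31 among Line-A rats, and 7.42, 7.57, 8.30 and 4.62 among Line-C rats. It was high in L-E rat 4 and low in Line-A rat 1 and Line-C rat 4, against *Mt2A* (r = -0.73, rho = -0.64).

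The members of fatty acid oxidation were *Cyp4a1* and *Cyp4a3*, omega-hydroxylases of fatty acids and targets of PPARA, *Cpt1a*, which brings fatty acids into mitochondria, *Ech1*, an enzyme for unsaturated fatty acids, *Cd36*, a fatty acid transporter, and *Vnn1*, a pantetheinase. *Crot*, the carnitine transferase of peroxisomes, was a member by 2 ProbeSets. *Cyp4a1* read 10.45, 9.14, 9.65 and 10.17 among S-D rats, 13.29, 13.73, 13.18 and 12.24 among L-E rats, 10.94, 11.60, 10.59 and 10.81 among H/W rats, 13.36, 10.07, 10.11 and 11.18 among Line-A rats, and 10.80, 10.81, 11.06 and 11.54 among Line-C rats. Line-A rat 1 stood more than 2 above the other Line-A rats, and L-E rat 4 was the lowest L-E rat. *Crot* read 10.48, 10.53, 10.18 and 10.43 among S-D rats, 10.71, 11.40, 10.63 and 10.40 among L-E rats, 10.89, 10.86, 10.97 and 11.40 among H/W rats, 9.94, 6.03, 7.11 and 6.07 among Line-A rats, and 9.78, 10.55, 10.15 and 9.98 among Line-C rats, so that Line-A rat 1 lay within the values of the other 4 groups and the other Line-A rats far below them. *Cpt1a* read 10.05, 10.05, 10.02 and 10.44 among S-D rats, 11.66, 12.09, 11.23 and 10.23 among L-E rats, 9.19, 10.49, 9.58 and 10.06 among H/W rats, 10.93, 8.94, 8.89 and 9.61 among Line-A rats, and 10.53, 10.24, 10.23 and 10.68 among Line-C rats, again with Line-A rat 1 on top of its line and L-E rat 4 lowest of its strain. The deviations of *Cyp4a1* ran against *Thrsp* (r = -0.64, rho = -0.79) and *Fasn* (r = -0.46, rho = -0.65).

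**Figure D2:**
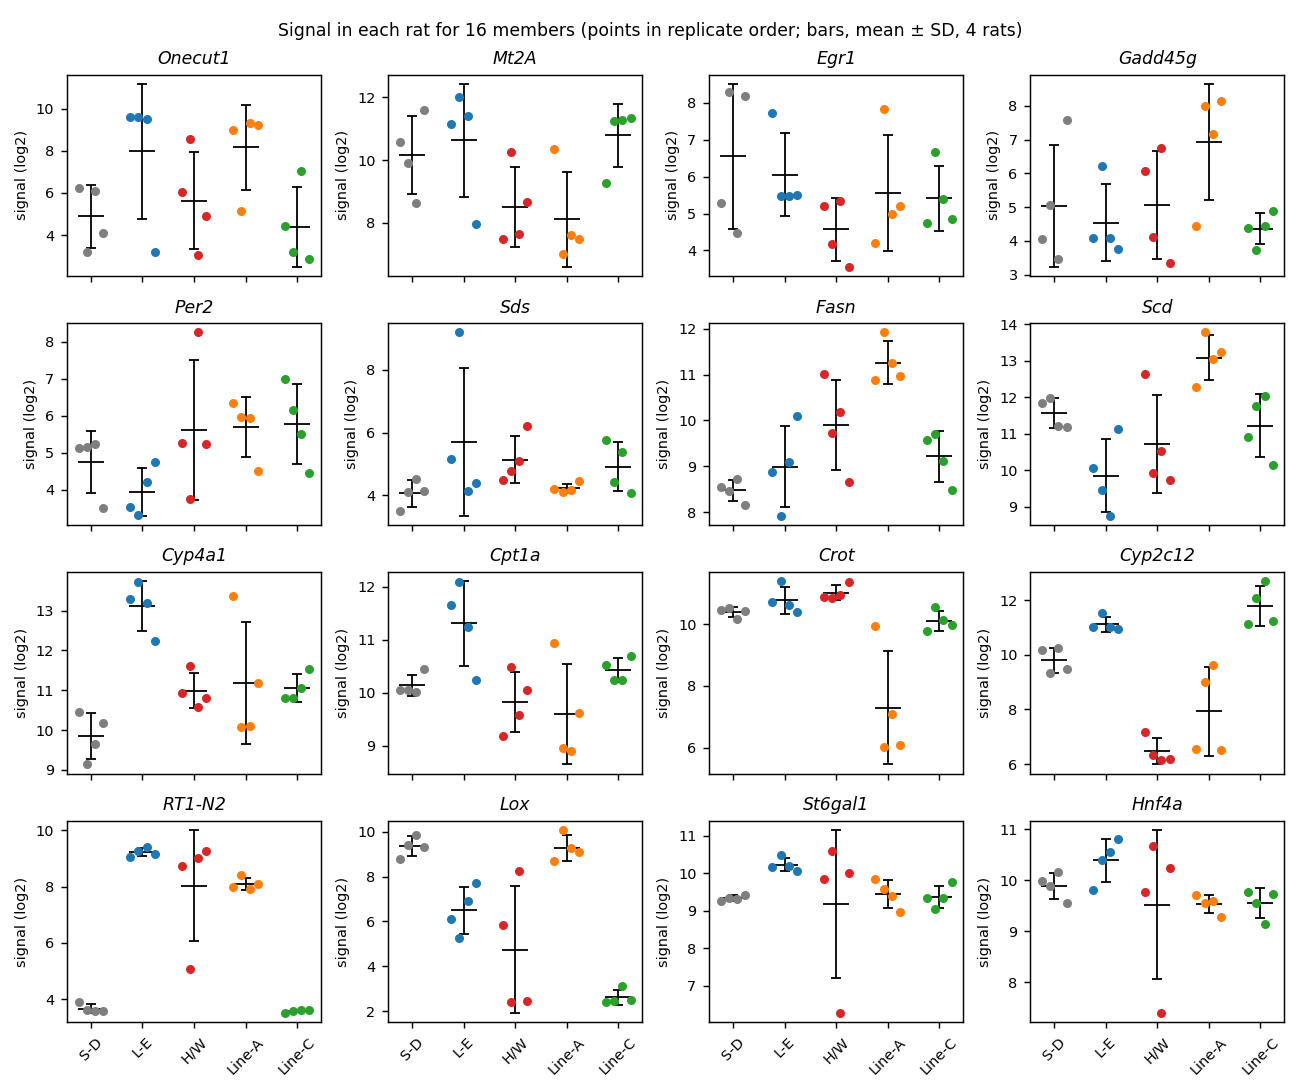
Signal (vertical axes, log2) of 16 members in each of 20 rats by strain or line (horizontal axes); points are rats in replicate order and bars are mean ± SD (n = 4). Single rats stand apart in *Cyp4a1* (Line-A rat 1), *RT1-N2* (H/W rat 2), *Sds* (L-E rat 2) and *St6gal1* (H/W rat 3).

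Co-variation was tested over the whole array by limma, with the signal of 1 anchor gene added to the group means as a covariate and p-values adjusted over all other ProbeSets at 5% FDR. The anchor was the member with the highest signal in each of 8 functional lists with 3 or more members. The clock list, with as many members as the P450 and antigen presentation lists, was left without an anchor by the limit of 8. With *Cyp4a1*, 8 of 133 members (6.02%) were associated, against a background of 0.427% of all ProbeSets and 0.588% of expressed ones, with 0.327% of all ProbeSets higher and 0.1% lower. The deviations that chose the members and the anchor are also the values this fit uses, so the higher share is a description only. Those 8 were both ProbeSets of *Cpt1a*, *Ech1*, *Cyp4a3*, 1 ProbeSet of *Crot*, 1370420_at and 1369840_at, which were higher where *Cyp4a1* was higher, and 1374493_at, which was lower. *Cpt1a* rose by 0.65 ± 0.10 (SE) per unit of *Cyp4a1* (limma, adjusted p = 0.0238). The call depended on Line-A: without rat 1, rat 2 or rat 3 of that line none of the members passed, and without rat 1 the correlation with *Cyp4a1* was 0.75 for *Cpt1a* and 0.75 for *Ech1* but 0.32 for *Crot*. No member was associated with *Dusp6*, *Scd*, *Rup2*, *Angptl4*, *Sgk1*, *Cyp2c12* or *RT1-T24-4* by limma after adjustment, whereas 18, 22, 12, 12, 24, 9 and 9 members had an unadjusted p under 0.05. The share of all ProbeSets under that unadjusted limit was not taken, and these counts are not read as associations. After adjustment the backgrounds for these 7 anchors were 0.00628%, 0.0188%, 0.00628%, 0%, 0.00628%, 0% and 0.00628% of all ProbeSets, and the lowest adjusted p among members was 0.129, with *Sgk1*. Without Line-C rat 1, 4 members were associated with *RT1-T24-4*.

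Average-linkage clustering of the deviations from group means, stopped at a mean correlation of 0.5, placed 86 of the 134 members in 12 co-varying groups of 4 or more. Of all pairs of members 7.62% had r of at least 0.5 and 7.01% had r of -0.5 or less, against 4.88% and 3.64% of pairs of expressed ProbeSets. The clustering used these same values and the groups are a description.

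The largest group had 17 members: *Cyp4a1*, *Cyp4a3*, *Cpt1a*, *Crot*, *Ech1*, *Mt1*, *Mt2A*, *Aldh1a1* (a retinal dehydrogenase), *Sult2a6* (a bile acid sulfotransferase), *Tle1*, *Zmiz1* and 4 ProbeSets without a single gene name. Line-A rat 1 held 33.4% of its squared deviations, and without that rat its mean correlation went from 0.67 to 0.46. A group of 9 held the lipogenic *Thrsp*, *Me1*, *Fasn*, *Scd* and *Pklr* with *Fabp5*, *Slc13a4*, *Tnfsf13* and 1374493_at. It was spread over rats, with L-E rat 4 holding most at 18.9%, and its mean correlation was 0.67 with all rats and 0.58 without that one. The group of *Onecut1*, *Jun*, *Socs2*, *Slc25a30* and *Mx2* (8 members) went from 0.62 to 0.58 without Line-C rat 3, and that of *Foxa2* and *Hhex*, both hepatic transcription factors, with *Rgs3*, *Dusp6* and *Rup2* (6 members) from 0.71 to 0.68 without H/W rat 1. *Foxa2* and *Hhex* had r = 0.87 (rho = 0.88). *Hhex* read 9.62, 9.71, 9.58 and 10.37 among S-D rats, 11.11, 10.12, 10.73 and 9.53 among L-E rats, 10.88, 9.31, 10.05 and 8.92 among H/W rats, 10.04, 10.82, 11.54 and 11.51 among Line-A rats, and 9.12, 9.65, 10.66 and 10.03 among Line-C rats, with H/W rat 1 on top of its strain and S-D rat 4 of S-D. *Dusp1*, *Gadd45g* and *Igfbp1* (4 members) went from 0.62 to 0.57 without Line-A rat 1, and *Adh4* and *Cyp2c12* with 2 ProbeSets without a single gene name from 0.60 to 0.54 without Line-A rat 3.

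The other groups depended more on 1 rat. In a group of 11 (*St6gal1*, *Rxra*, *Hnf4a*, *Gna12*, *Lasp1*, *Ppp3r1*, *Eif4g1*, *B4galt1*, *Abhd2*, *Ssr3* and 1370371_a_at) H/W rat 3 held 50.2% of the squared deviations, and the mean correlation went from 0.71 to 0.22 without it. In the group of *Lox*, *Dmbt1*, *Dcn*, *Per2*, *Raph1* and 1391485_at the same rat held 38.8%, and the mean went from 0.64 to 0.29. *Abcc9*, *Dmxl2*, *Cela1*, *RT1-N2*, *Nox4* and *Marveld1* went from 0.72 to 0.34 without H/W rat 2, and *Kng2l1*, *Pla2g12a*, *Cd36*, *Wsb1*, *Stat3* and *Sds* from 0.64 to 0.36 without L-E rat 2. *Col1a1*, *Ptn*, *Etv3* and *Egr1* went from 0.64 to 0.34 without S-D rat 3, and *Anxa5*, *Sgk1*, *Slc6a6* and 1370751_at from 0.65 to 0.38 without Line-C rat 4.

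**Figure D3:**
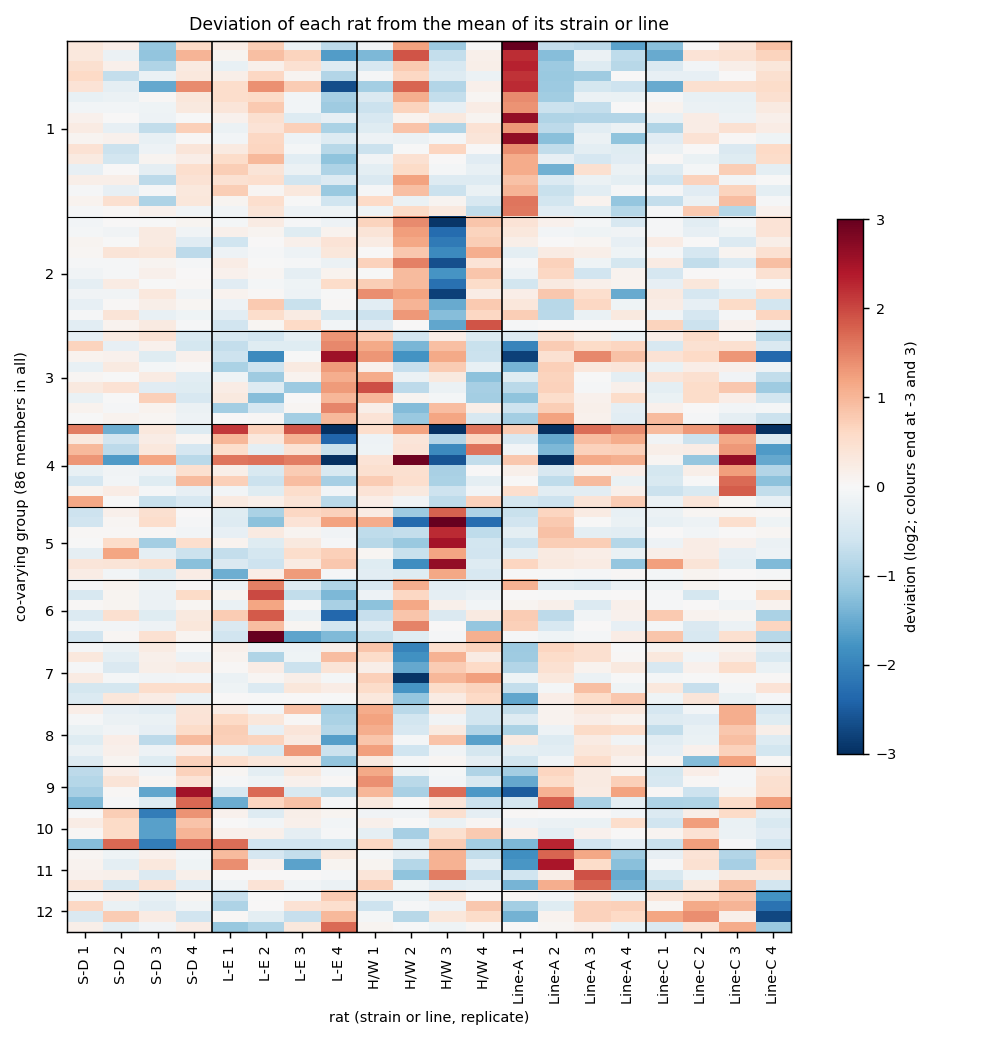
Deviation of each of 20 rats (columns, by strain or line and replicate) from the mean of its strain or line, in log2 (colour, ending at -3 and 3), for the 86 members in 12 co-varying groups (rows, numbered by size). Line-A rat 1 is high across group 1, H/W rat 3 low across group 2 and high across group 5, and L-E rat 4 high across group 3.

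For each member the rat farthest from its group mean was noted. Line-A rat 1 was that rat for 20 members (13 above and 7 below), H/W rat 3 for 19 (8 above and 11 below), L-E rat 4 for 14, H/W rat 2 for 11 and Line-A rat 2 for 9, and these 5 arrays accounted for most of the 134. Over all expressed ProbeSets H/W rat 3 was also the farthest most often (15.8%), followed by H/W rat 2 (8.88%), whereas Line-A rat 1 was farthest for 6.68% of them and for 14.9% of the members. L-E rat 4 was farthest for 4.96% of expressed ProbeSets and for 10.4% of the members. In 20 members (14.9%, against 5.15% of expressed ProbeSets) more than 50% of all squared deviations came from 1 array, which was H/W rat 3 in 9 of them.

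**Figure D4:**
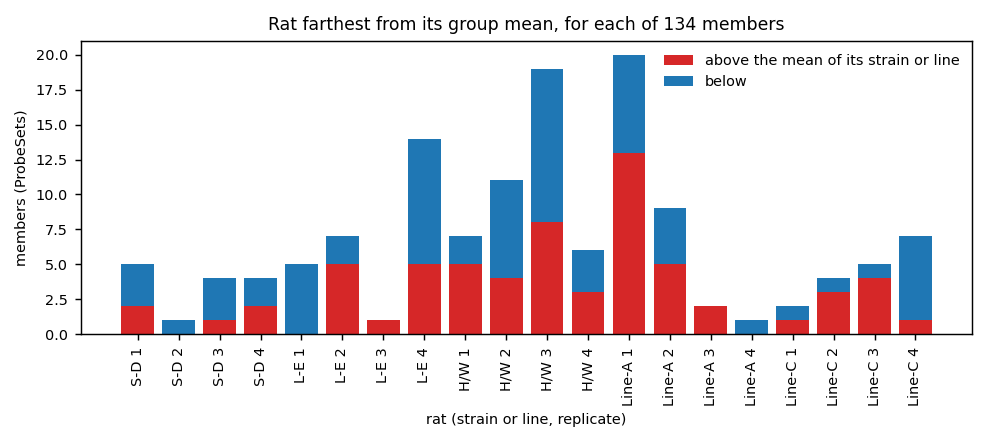
Number of members (vertical axis) for which each of 20 rats (horizontal axis) lay farthest from the mean of its strain or line, above (red) or below it (blue). Line-A rat 1 (20 members), H/W rat 3 (19) and L-E rat 4 (14) are the tallest bars.

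H/W rat 3 also had the highest difference between the 3′ and 5′ control ProbeSets of GAPDH, a measure of RNA integrity, at 0.81 against 0.17 to 0.58 in the other rats. The same difference for beta-actin and hexokinase was also higher in this rat than in the other H/W rats. For beta-actin it was 2.24, against 1.88 to 2.07 in the other H/W rats, and only Line-C rat 3 was higher, at 2.26. For hexokinase it was -0.281, against -0.351 to -0.327 in the other H/W rats, and only L-E rat 2 was higher, at -0.279. H/W rat 3 was low for some members and high for others. *St6gal1*, a sialyltransferase, read 9.86, 10.59, 6.26 and 10.02 in H/W, against 8.98 to 10.48 in all other groups, and *Hnf4a*, a central hepatocyte transcription factor, read 9.77, 10.67, 7.39 and 10.25, against 9.13 to 10.81 elsewhere. On the other side *Dcn* (decorin) read 2.67, 2.38, 5.98 and 2.95 and *Dmbt1*, a secreted scavenger protein, 4.42, 4.48, 7.44 and 4.43 in H/W. With the GAPDH difference as a covariate in limma, 21 of 134 members (15.7%) were associated at 5% FDR, 10 higher and 11 lower, against 34.7% of all ProbeSets (3.64% higher and 31.1% lower) and 11.2% of expressed ones. *Dmbt1*, *Adh4*, *Dcn* and *Lox* were among the higher and *Rxra*, *St6gal1*, *Lasp1* and *Hnf4a* among the lower, with limma adjusted p from 0.0205 to 0.0487 over the 21. With all rats 25 members had an unadjusted p under 0.05 in this fit, a count again without its share over all ProbeSets. Without H/W rat 3 no member was associated after adjustment. Whether RNA integrity had a part in these values was not tested.

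Many genes have a second ProbeSet, made of other probes. For some genes this second ProbeSet was chosen by the same rule and is a member itself. For 31 genes with 40 pairs of ProbeSets the median correlation of deviations was 0.60, with 22 pairs at 0.5 or more and 13 under 0.2. In 33 pairs the second ProbeSet was not itself a member, and its median pooled SD was 0.231, against 0.185 for all expressed ProbeSets. Over these 33 pairs the median correlation was 0.45, with 16 pairs at 0.5 or more. By second ProbeSets outside the members, the pattern among rats was repeated for *Thrsp* (r = 0.97), *Fasn* (0.97), *Pklr* (0.95), *Nr1d2* (0.87), *Stat3* (0.86) and *Me1* (0.85). The second ProbeSets of *Lox* (0.94), *Crot* (0.93), *Jun* (0.92), *Cpt1a* (0.92) and *Dusp1* (0.89) also repeated it, but they were chosen by the same rule. For *Hnf4a* r was 0.97 with a second pooled SD of 0.431. It was not repeated for *Eif4g1* (r = -0.03), *Gna12* (-0.19), *Lasp1* (-0.27), *Egfr* (0.01), *Ythdf2* (0.10), *Mx2* (-0.03) or *RT1-Ba* (-0.23). The 3 other ProbeSets of *Rup2*, with pooled SDs of 0.0588 to 0.0914, had means of 14.7 to 15.5, near or at that of the brightest hybridization control (15.5), and whether a spread can still be measured at that level was not tested. *St6gal1* had 0.36 with a second pooled SD of 0.231, and of the 3 *Dusp6* ProbeSets the pairs had r = 0.55, 0.61 and 0.86.

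**Figure D5:**
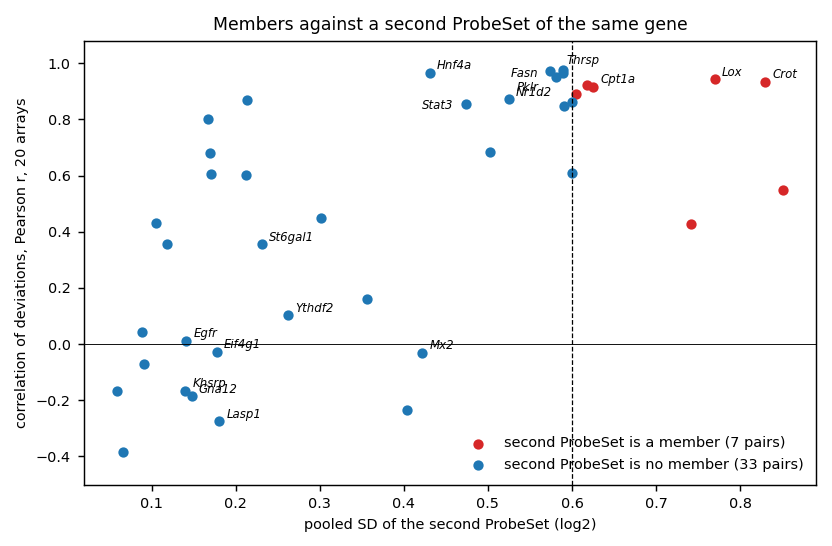
Correlation of deviations (vertical axis, Pearson r over 20 arrays) between a member and a second ProbeSet of its gene, against the pooled SD of the second ProbeSet (horizontal axis, log2), for 40 pairs from 31 genes; red, the second ProbeSet is also a member (7 pairs); blue, it is not (33 pairs). Of the 40 pairs, 22 have r of at least 0.5, among them *Fasn*, *Thrsp*, *Pklr*, *Cpt1a* and *Hnf4a*, and 13 lie under 0.2.

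In some members the 4 rats of a group fell into 2 levels, 2 rats low and 2 high, with a gap of at least 1.5 that was at least 2 times the spread within either pair. There were 19 such cases among the 7142 expressed ProbeSets and 5 groups, and 17 of them were in members, a description of the same spread that chose them, with limits set after the values were seen. *Ssx2ip* (a centrosome and cell adhesion protein) read 6.0, 1.97, 1.82 and 5.86 in Line-A, with rats 2 and 3 low, and 5.41 to 6.68 in every rat of S-D, L-E and Line-C, while H/W rat 3 was as low as those of Line-A, at 1.81. These low signals lay below the limit of expression, so the gap in *Ssx2ip* is one of measured signals. *Ythdf2*, a reader of methylated mRNA, read 9.23, 5.43, 5.54 and 8.54 in Line-C, where rats 2 and 3 lay between L-E (2.98 to 4.19) and H/W (6.87 to 8.05) and rats 1 and 4 above all of H/W. *Cyp2c12*, a P450 typical of female rat liver, read 6.53, 9.02, 9.63 and 6.53 in Line-A, with rats 1 and 4 at the level of H/W (7.17, 6.32, 6.16 and 6.20) and rats 2 and 3 between H/W and L-E (11.02, 11.53, 11.02 and 10.94). *RT1-Ba*, a class II antigen-presenting molecule, read 6.15, 7.81, 6.15 and 8.01 in S-D, and *Egr1* in S-D and *Gadd45g* in H/W were further cases.

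*RT1-N2*, an MHC class I gene, read 3.90, 3.61, 3.57 and 3.58 among S-D rats, 9.05, 9.27, 9.40 and 9.16 among L-E rats, 8.74, 5.08, 9.03 and 9.26 among H/W rats, 7.97, 8.41, 7.92 and 8.08 among Line-A rats, and 3.52, 3.58, 3.62 and 3.61 among Line-C rats. H/W rat 2 was more than 3 below the other H/W rats, and S-D and Line-C lay below the limit of expression, without overlap with the other groups. *RT1-T24-4*, another MHC gene, was low in the same rat and also in Line-C rat 1, at 8.05, 8.21, 8.16 and 7.95 among S-D rats, 9.28, 9.25, 9.27 and 9.40 among L-E rats, 8.64, 6.41, 8.68 and 9.31 among H/W rats, 9.32, 9.74, 9.49 and 9.40 among Line-A rats, and 7.52, 9.71, 9.91 and 9.33 among Line-C rats. Their deviations had r = 0.75 (rho = 0.61). The interferon-stimulated *Oas1a* read 5.44, 7.09, 5.57 and 4.95 in S-D and 5.34, 6.02, 7.59 and 4.93 in Line-C, and 3.61 to 4.61 in the other groups, and *Mx2* was high in Line-C rat 3 too, at 5.73, 5.92, 8.19 and 5.63. ProbeSet 1370428_x_at, which carries several symbols, was at 10.84, 10.96, 10.55 and 3.81 in S-D and 11.47 to 12.32 in all other groups, so that S-D rat 4 alone was far below. *A2m*, the rat acute-phase protein alpha-2-macroglobulin, read 5.12, 8.27, 7.94 and 6.48 in S-D and 3.74 to 5.14 elsewhere, so that S-D rat 1 was the only S-D rat within the range of the others.

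Of the markers of other cell types, *Lox*, which cross-links collagen, *Dcn* and *Col1a1* of the 11 expressed genes of stellate cells and fibroblasts were members, and so was *Cela1*, an elastase, 1 of the 2 of 17 pancreas genes that were expressed. None of 9 Kupffer cell genes, 4 endothelial genes, 2 cholangiocyte genes or 3 erythroid genes was a member. The erythroid genes had a median pooled SD of 0.50, and their summed signal was 10.66 in Line-C rat 3 against 12.04 to 12.34 in the other Line-C rats. That rat was also the highest of its line for *Onecut1*, *Mx2*, *Dusp6* and *Rgs3*, and the part of erythroid RNA in these values was not tested. *Lox* read 8.77, 9.41, 9.86 and 9.31 among S-D rats, 6.10, 5.26, 6.92 and 7.71 among L-E rats, 5.86, 2.42, 8.23 and 2.45 among H/W rats, 8.71, 10.07, 9.27 and 9.07 among Line-A rats, and 2.39, 2.45, 3.12 and 2.48 among Line-C rats. H/W rat 3 was high in its strain, every S-D and Line-A rat read 8.71 or more, and every Line-C rat 3.12 or less. *Col1a1* read 7.22, 7.96, 5.13 and 8.55 in S-D and 4.07 to 5.60 in the other groups, so that S-D rat 3 lay among the other groups. The summed signal of the stellate markers on the array was 11.8 to 12.3 in S-D and 10.0 to 11.3 in the other groups, with H/W rat 3 (11.0) above the other H/W rats (10.2 to 10.4). This sum includes the member ProbeSets of *Lox*, *Dcn* and *Col1a1* and so partly restates their signals. The part of these cells in the values was not tested.

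Differences between strains or lines in the mean signal were tested by the moderated F-test of limma. Of the 134 members 17 passed at 0.1% FDR (12.7%), against 4.6% of all ProbeSets and 9.49% of expressed ones, and 54 (40.3%) were called in at least 1 of 10 pairs at 1% FDR, against 14.6% and 28.6%. The within-strain spread that chose the members is also the denominator of this test. *Marveld1*, a membrane protein gene, read 7.15, 7.90, 7.77 and 7.38 among S-D rats, 2.30, 2.30, 2.30 and 2.29 among L-E rats, 7.21, 5.74, 7.13 and 7.48 among H/W rats, 6.91, 8.67, 9.0 and 9.27 among Line-A rats, and 2.39, 2.90, 2.32 and 2.50 among Line-C rats. L-E and Line-C read 2.90 or less in every rat, below the limit of expression, and did not overlap the other groups. Taken against that limit, Line-A, at a mean of 8.46, was at least 4.46 above Line-C on the log2 scale. The limma contrast of the measured means, which did not test that bound, had an adjusted p of 3.99e-07. *Cyp2c12* had means of 6.46 in H/W and 11.79 in Line-C, a difference of -5.33 ± 0.59 (SE) (limma, adjusted p = 5.10e-05). *RT1-N2* and *Lox* were also below the limit in every Line-C rat. *RT1-N2* was at least 5.22 higher in L-E than in Line-C and *Lox* at least 5.28 higher in Line-A than in Line-C. For these too the limma contrasts took the measured means and not the bounds, with adjusted p of 4.04e-05 for *RT1-N2* and 0.001 for *Lox*. These 3 genes reached a mean of 4 only through the groups where they were high. The others past the F-test were *Ythdf2*, *Spink1*, *Slc6a6* (1368778_at only), *Crot* (1387183_at only), *Aldh1a1*, *Serpina7*, *Raph1*, *Nqo1*, *A2m*, the second *Lox* ProbeSet, 1370425_at, 1371076_at and 1389986_at. The *Crot* ProbeSet whose signals are given above (1368426_at) did not pass, and neither did the other *Slc6a6* member (1374531_at). When scan day entered as a random block, 7 members passed the F-test and 21 were called in a pair, and without S-D rat 2, Line-A rat 3 or Line-A rat 4 it was 11 that passed the F-test.

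*Nqo1*, a quinone reductase and target of NRF2 and AHR, joined a difference between strains with an SD of at least 0.6 in 4 groups, all but L-E. It read 8.35, 5.05, 4.25 and 5.05 among S-D rats, 9.66, 9.95, 9.49 and 8.76 among L-E rats, 5.02, 6.71, 5.11 and 5.0 among H/W rats, 9.83, 8.77, 8.24 and 8.21 among Line-A rats, and 8.80, 8.41, 8.30 and 9.73 among Line-C rats. S-D rat 1 was more than 3 above the other S-D rats, and H/W lay below L-E, Line-A and Line-C in every rat. By contrast *Onecut1* was not called in any pair, with an F-test adjusted p of 0.116, and 1372727_at had group means within 0.647 of each other (adjusted p = 0.995, limma).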

How the data were processed

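Total liver RNA of 20 rats (5 strains or lines, 4 rats each) was hybridized to Affymetrix RAE230A arrays. The values are log2 signals of 15923 ProbeSets that the authors deposited after sequence-specific background correction and normalization by GCRMA, and per the submitters' processing notes R 2.6.1, affy 1.12.0 and GCRMA 2.10.0 were used. This step makes arrays alike in distribution (medians here 3.47 to 3.69), and changes in total mRNA cannot be read from them. The deposited scanner files were used only for other information in their headers, namely scan day, chip lot and operator. Of the ProbeSets, 12789 carried 1 gene symbol, 312 several and 2822 none. All columns were mapped to rats by their labels.

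The pooled SD within groups, its threshold of 0.6 and the mean of at least 4 define the members, and the AFFX control ProbeSets were left out of the choice. The members and gene lists were chosen with earlier results of these data known. Groups were compared with limma 3.58.1 in R 4.3.3 (1 mean per group over 20 arrays, F-test at 0.1% FDR, 10 pairs at 1% FDR) and co-variation with an anchor gene or the GAPDH 3′ to 5′ difference as a covariate (5% FDR), with Benjamini-Hochberg adjustment over all ProbeSets. The model was tested on simulated data. Labels name single rats but give no cohort, and the number of arrays sets the precision.

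Members with a single symbol were named if they were among the 24 with the largest SD, up to 4 of each list, the anchors and up to 5 members called with each, the largest deviation of each rat, next to the threshold, up to 6 with the smallest F-test p or up to 6 leading genes of each co-varying group. *Klf10*, *Angptl8*, *Slc25a25* and others outside this rule complete a counted set and were named after their values were seen. Alternatives were other scalings, thresholds, variance models, scan day and replicate blocks and each array left out. The SD within scan days, the co-varying groups without their leading rat, the limits for 2 levels, the stricter metal core and the gene pairs correlated were chosen after seeing the data. Promoters came from a RefSeq table (GRCr8) that held 78 of the 98 genes. Python 3.11.15, numpy 2.4.6, pandas 2.3.3 and matplotlib 3.10.9 were used.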

Additional observations from a re-analysis of the deposited data

Results flagged for a closer look

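Within each group of 4, the highest or lowest rat was marked where its gap to the nearest other rat, over the range of the group, exceeded Dixon's critical value for 4 samples. Of 385 groups from 77 named members 50 (13%) were marked, where chance marks about 1 in 20, and in 30 of them the group ranged over more than 1 on the log2 scale. The members were chosen for spread, so these marks describe it again. The marks for *Lox* in Line-C and for *RT1-N2* and *Adh4* in S-D compare values that all lie below the limit of expression of 4 and give no order of levels.

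H/W rat 2 was the highest of its group for *Nqo1* (6.71), *Kng2l1* (9.69) and *Pla2g12a* (5.26) and the lowest of its group for *RT1-N2* (5.08), *Nox4* (2.71) and *Abcc9* (4.67). Line-C rat 3 was the highest of its group for *Lox* (3.12), *Dusp6* (8.28), *Mx2* (8.19) and *Rgs3* (8.95) and the lowest of its group for *RT1-Ba* (6.28). S-D rat 4 was the highest of its group for *Cpt1a* (10.44), *Stat3* (9.82) and *Hhex* (10.37) and the lowest of its group for *Per2* (3.51) and *Dmbt1* (4.27). Line-A rat 1 was the highest of its group for *Vnn1* (5.87), *Ech1* (11.21) and *Rxra* (7.56) and the lowest of its group for *Me1* (5.34) and *Rgs3* (7.98). H/W rat 3 was the highest of its group for *Dcn* (5.98), *Dmbt1* (7.44) and *Raph1* (4.94) and the lowest of its group for *St6gal1* (6.26) and *Ppp3r1* (3.42). L-E rat 4 was the highest of its group for *Me1* (8.60) and *Thrsp* (12.48) and the lowest of its group for *Onecut1* (3.18) and *Rup2* (11.79). S-D rat 3 was the highest of its group for *Eif4g1* (5.32) and *Gna12* (4.81) and the lowest of its group for *Fabp5* (7.42) and *Adh4* (3.15). Line-C rat 4 was the lowest of its group for *Nrep* (7.01), *Abcc9* (4.50) and *Anxa5* (4.58). Line-A rat 2 was the highest of its group for *Dmbt1* (5.58) and the lowest of its group for *Onecut1* (5.14). L-E rat 2 was the highest of its group for *Gadd45g* (6.23) and *Cyp2c12* (11.53). L-E rat 3 was the lowest of its group for *Oas1a* (3.61) and *Rxra* (8.44). Line-C rat 1 was the lowest of its group for *Mt2A* (9.27). L-E rat 1 was the highest of its group for *Egr1* (7.74). H/W rat 1 was the highest of its group for *Cyp2c12* (7.17). S-D rat 1 was the highest of its group for *RT1-N2* (3.90). S-D rat 2 was the lowest of its group for *Vnn1* (3.16). Line-A rat 3 was the lowest of its group for *Cd36* (5.95). Line-A rat 4 was the highest of its group for *Ptn* (4.72).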

How the results depend on the processing

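The number of transcripts chosen moved with the threshold. It was 262 with a pooled SD of at least 0.5, 55 with at least 0.8, 87 with a mean of at least 6 and 62 with the median absolute deviation in place of the SD, and 114 (without Line-A rat 1) to 153 (without Line-A rat 3) with 1 array left out. With the 134 members fixed, the F-test passed 49 with array weights, 32 when only expressed ProbeSets were fitted and 7 with scan day as a random block, and 11 (without S-D rat 2) to 24 (without Line-A rat 1) with 1 array left out. Members called in at least 1 pair were 88 with array weights and 21 with scan day as a random block, and 42 to 67 with 1 array left out. Association with *Cyp4a1* passed 4 members with array medians made equal, 13 with limma's trend and 15 when only expressed ProbeSets were fitted, and 0 (without Line-A rat 1, 2 or 3) to 10 with 1 array left out. Association with the GAPDH difference passed 11 with equal medians, 1 with scan day as a fixed term and 8 over expressed ProbeSets, and 0 (without H/W rat 3) to 21. With *RT1-T24-4* it passed 0 to 4 (without Line-C rat 1), and with the other 6 anchors 0 under each alternative run. The causes were not tested.

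Replicate numbers did not pair the samples, since deviations of same-numbered rats had correlations of -0.34 to 0.22 (median -0.01) and 3 of 20 arrays correlated best with their own number. With the replicate block 12 members passed the F-test, 44 were called in a pair, 2 were associated with *Cyp4a1* and 0 with the GAPDH difference.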
